A study of Cricetulus griseus and Cricetulus griseus
Mus musculus and Mus musculus with 202 samples.

Results

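The anaphase-promoting complex, or cyclosome (APC/C), is described here through 10 of its subunits: Anapc1, Anapc2, Anapc4, Anapc5, Anapc7, Anapc10, Anapc11, Anapc16, Cdc16 and Cdc27. They were taken from a list of subunits wherever the array's probe table gave a feature a single symbol, which found 10 of 10 listed subunits among 16504 genes. They are covered by 11 features, since Anapc1 has 2. The subunits were chosen by name after the panel means over A23, that of Anapc11 above all, had been seen, so those means are given as a description, with no test.

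The hybrids are the T31 panel, 99 lines in which fragments of an irradiated mouse genome are carried by cells of A23, a Chinese hamster line. Each line was set against A23 on 2 arrays, the second with the dyes exchanged. A23 lacks thymidine kinase and the panel was selected for its return, so all lines should hold mouse Tk1, while every other fragment is held by some lines and not by others. Which fragments a line holds is not in the files analysed here. A further 4 arrays set mouse whole brain against Chinese hamster whole brain and mouse liver against hamster liver, with 2 arrays for each tissue and the dyes again exchanged. The labels give no strain, age or sex for the animals and do not say how many were used, and hybrid cells and A23 cells were cultured alike. A value is a ratio: hybrid over A23, or mouse over hamster, on the log2 scale, so that 1 is a doubling.

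The APC/C is a ubiquitin ligase. At the end of metaphase it marks securin and cyclin B for destruction, which lets sister chromatids part and the cell leave mitosis, and with its coactivator Fzr1 it also keeps cells in G1 and acts in neurons that no longer divide. Anapc11 carries the RING finger that receives the ubiquitin-loaded enzyme, Anapc2 is the cullin that holds Anapc11, and Anapc10 helps to bind substrates. Anapc1, Anapc4 and Anapc5 form the platform. Cdc16, Cdc27 and Anapc7 build the arm of tetratricopeptide repeats to which coactivators bind, and Anapc16 is a small protein attached to that arm.

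The arrays were uneven. Array SDs of the log2 ratios lay between 0.397 and 2.43, the widest being in line 42, and arrays of the same orientation correlated across genes at a median r of 0.225 in replicate 1 and 0.233 in replicate 2. Of 9702 such pairs of arrays, 42 correlated below -0.3, and lines 23 and 24 each held an array whose median correlation with the others of its orientation was below 0. The labels state the dyes, so the direction was kept. With each gene's orientation mean removed, 28 lines had their own second array as the best match of their first, and 71 did not. Tk1, the check of the hybrid labels, averaged 1.84 ± 0.08 (SE, n = 99 lines) and lay above 0 in 98 lines.

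Across the panel, one subunit of the catalytic core stood far above the others. Anapc11 averaged 2.36 ± 0.18 (SE, n = 99), or 5.13-fold above A23, and ranked 6 of 16504 genes by its panel mean. Its lines ran from -0.83 in line 24 through a median of 2.81 to 5.70 in line 13. The middle of the distribution was wide, with quartiles at 0.49 and 3.86. In 60 lines both arrays lay above 1, in 11 lines a single array did and in 28 lines neither did. The lines with the highest means were high on both arrays: line 68 gave 6.04 and 5.31, and line 22 gave 5.53 and 5.28. Line 13 gave at least 6.64, the floor of the deposited ratios, and 4.76. Other lines were high on a single array, such as line 26 with 5.50 and 0.05 and line 65 with 0.34 and 4.66. The orientations had means of 2.55 in replicate 1 and 2.16 in replicate 2.

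Its partners in the catalytic module did not share this level. Anapc2 averaged 0.23 ± 0.04 (SE, n = 99), with lines from -0.58 through 0.12 to 1.77, and in 0 lines did both arrays exceed 1. Its replicate means were 0.41 and 0.06. Anapc10 averaged -0.14 ± 0.10, with lines from -3.45 or below through -0.17 to 2.14. Both of its arrays exceeded 1 in 6 lines and lay below -1 in 7 lines. Its lowest line, line 10, gave -0.26 in replicate 1 and -6.64 or below, at the floor, in replicate 2.

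In the platform, Anapc4 averaged 0.43 ± 0.11 and Anapc1 0.34 ± 0.08 (SE, n = 99 each), while Anapc5 averaged -0.0037 ± 0.07. The means in replicates 1 and 2 were 0.61 and 0.26 for Anapc4 and 0.65 and 0.04 for Anapc1. The median line of Anapc4 lay at 0.02 and its highest at 4.37, so its mean came from a minority: both arrays exceeded 1 in 15 lines. Line 72 gave 3.98 and 2.46 and line 78 gave 3.28 and 2.99, whereas line 14, its highest, gave at least 6.64 and 2.10. Anapc1 had lines from -0.96 through 0.12 to 2.70, and 7 lines above 1 on both arrays. Line 5 was the highest with 2.90 and 2.51. The mean of Anapc5 differed in sign between the orientations, at -0.53 in replicate 1 and 0.52 in replicate 2. Its lines ran from -2.78 in line 42 through 0.10 to 2.56 in line 24, which are the line of the widest array and a line with an array that stood apart, with both arrays above 1 in 1 line and below -1 in 3 lines.

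In the arm, Cdc16 averaged 0.81 ± 0.17, Anapc16 0.72 ± 0.08, Cdc27 0.09 ± 0.05 and Anapc7 -0.13 ± 0.03 (SE, n = 99 each). The means in replicates 1 and 2 were 1.20 and 0.43 for Cdc16 and 0.97 and 0.47 for Anapc16. Cdc16 was exactly 0 on 126 of 198 arrays, 63.6%, so its median line was 0, and its mean rested on few lines. In 14 lines both arrays exceeded 1, led by line 97 with 6.59 and 5.92. The lowest line of Cdc16 was line 58 at -2.89, from 0 and -5.79. Anapc16 was spread more evenly, from -0.62 through 0.52 to 3.64 in line 18, with 82 lines above 0. It exceeded 1 on both arrays in 14 lines and on a single array in 37. Cdc27 had lines from -1.18 through 0.12 to 1.65 and exceeded 1 on both arrays in 2 lines. Anapc7 varied least, with lines between -0.91 and 0.43, a median of -0.16, and both arrays below 0 in 42 lines.

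**Figure D1:**
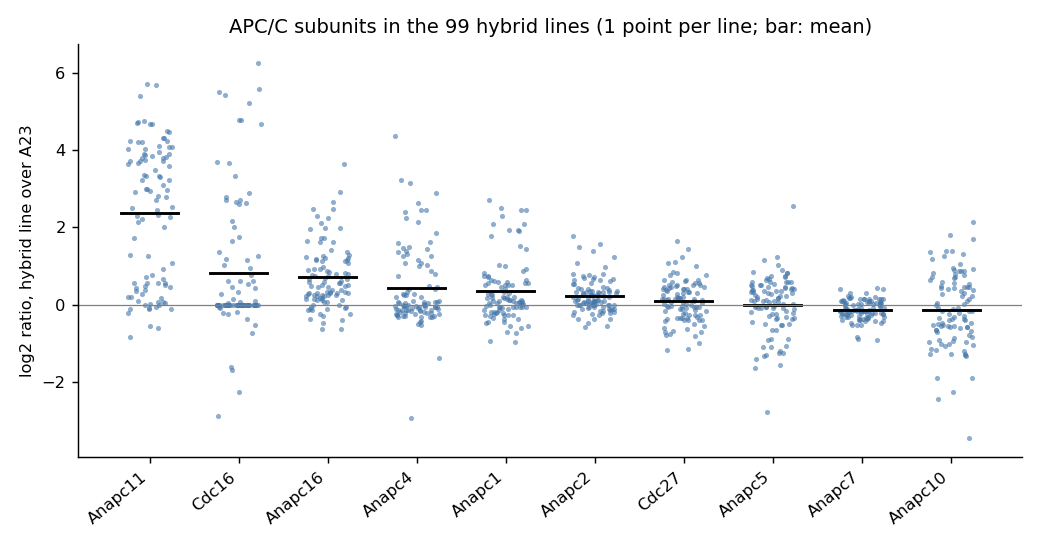
Log2 ratio of each hybrid line over A23 (vertical axis) for the 10 subunits, with 1 point per line, the mean of its 2 arrays, and a bar at the mean of the 99 lines. Anapc11 spreads from -0.83 to 5.70 around a mean of 2.36, whereas the means of the other 9 subunits lie between -0.14 and 0.81.

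In order of the panel mean, Anapc11 exceeded the next subunit, Cdc16, by 1.55 ± 0.23 (SE of the difference over 99 lines) and was higher in 71 lines. Below that, 7 of the 8 neighbouring pairs differed by less than 2 SE, and the pair Anapc16 and Anapc4 by 0.28 ± 0.13. The order was set by these same means, so all of these differences are descriptions and not tests. The means had one sign in both orientations in 7 subunits, above 0 in 6 and below 0 in Anapc10. In Anapc5, Anapc7 and Cdc27 the sign changed with the dyes. By the threshold used across all genes, 6 of the 10 subunits counted as higher and 0 as lower, while 19.5% of all genes were higher and 11.4% lower. Nothing is read from that count, since the subunits were chosen with these means in view.

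Whether a subunit's level differs from line to line was asked with a test into which the panel mean does not enter. The subunits were chosen after the means of these same arrays were seen, so the result is not independent of that choice. Anapc11, Cdc16, Anapc4 and Anapc1 differed between lines, and the other 6 subunits did not pass. That was 4 of 10 subunits, against 8.88% of all genes (limma's moderated F test over 99 lines with dye orientation as a term, 198 arrays). Anapc11 gave F = 4.01 (adjusted p = 1.1e-09) and ranked 145 of 16504 genes. Cdc16 followed with F = 3.05 (adjusted p = 1.4e-06), Anapc4 with 2.60 (adjusted p = 4.8e-05) and Anapc1 with 2.00 (adjusted p = 0.0055). For Anapc10 and Anapc16 the limma adjusted p was 0.119 and 0.122, and for Anapc2 it was 0.903.

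The same agreement, which the F test measures with 2 arrays per line, can be read as a correlation. Between the arrays of a line, r over 99 lines was 0.591 for Anapc11, 0.498 for Cdc16, 0.434 for Anapc4 and 0.332 for Anapc1, and -0.073 for Anapc2. Anapc1 differed between lines through each of its features alone (limma, adjusted p = 0.0446 and 0.0022). The feature with the larger p was exactly 0 on 44.9% of hybrid arrays, with means of 0.97 in replicate 1 and -0.36 in replicate 2. Cdc16 rests on the minority of arrays with a value other than exactly 0. With exact zeros taken as missing, Anapc2, Anapc11 and Cdc16 could not be tested, and 2 of 7 subunits passed, beside 7.68% of the genes tested. Without the dye term Anapc1 did not pass (limma, adjusted p = 0.20). Without lines 23 and 24 Anapc16 passed as well (limma, adjusted p = 0.0287, beside 10.5% of all genes), as it did with arrays scaled to one spread (adjusted p = 0.0257, beside 10.9%).

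**Figure D2:**
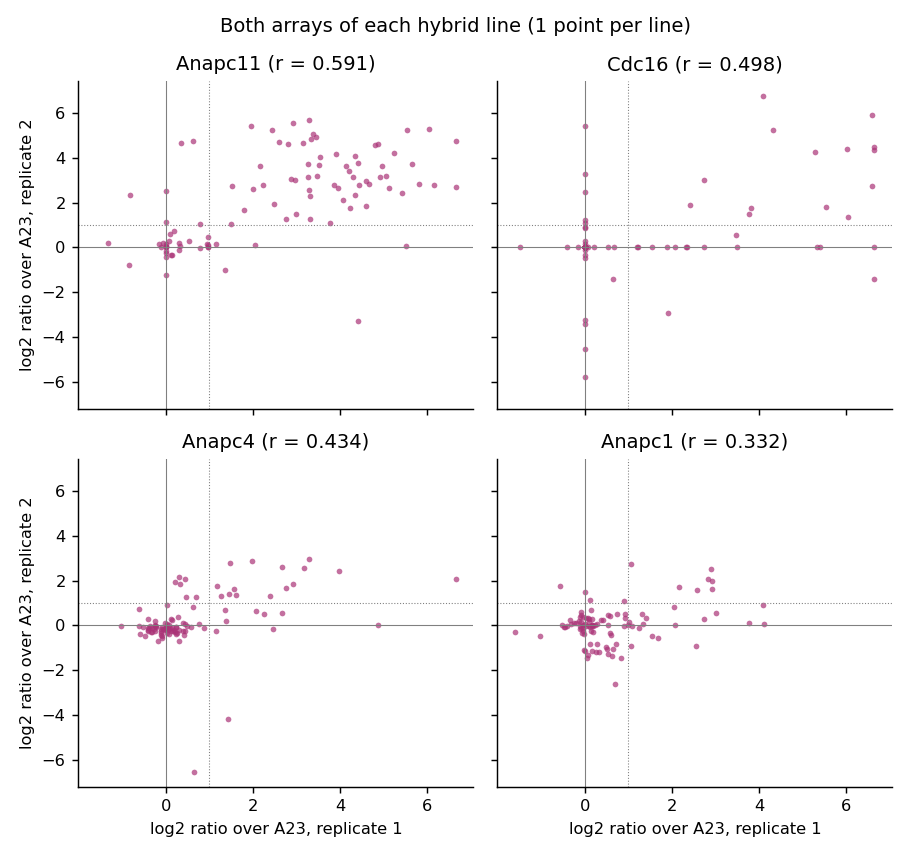
Log2 ratio over A23 on the replicate 1 array (horizontal axis) against the replicate 2 array (vertical axis), 1 point per line, for the 4 subunits that differed between lines. Points high on both axes are lines whose second array repeated the first, with 60 lines above 1 on both arrays for Anapc11, 15 for Anapc4, 14 for Cdc16 and 7 for Anapc1.

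Lines differed in how many subunits were raised. Both arrays exceeded 1 for no subunit in 25 lines, for 1 subunit in 42 lines, for 2 in 20 lines, for 3 in 11 lines and for 4 in line 99 alone, where these were Anapc4, Anapc11, Anapc16 and Cdc16. Anapc11, raised in 60 of 99 lines (60.6%), was also raised in 12 of the 14 lines of Cdc16, 12 of the 14 of Anapc16, 6 of the 7 of Anapc1 and 8 of the 15 of Anapc4, overlaps that were not tested. Over the 45 pairs of subunits, r across the 99 line means averaged 0.0187, and 23 pairs lay above 0. The extremes were 0.484 for Anapc10 with Cdc27, at 0.442 in replicate 1 and 0.522 in replicate 2, and -0.424 for Anapc2 with Anapc5, at -0.46 and -0.31. When one subunit was taken from replicate 1 arrays and the other from replicate 2 arrays, the range was -0.139 to 0.131. That range is limited by each subunit's own r between arrays, which was 0.0956 for Cdc27 and 0.215 for Anapc10. The pairs with Anapc11 ran from -0.0958 to 0.194. Line means share arrays, so these are descriptions.

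Anapc11 lies on the same mouse chromosome as Tk1, the selected gene. Across the 99 lines its values correlated with those of Tk1 at r = 0.197 and rho = 0.188, and at r = 0.192 without the 2 lines farthest from the median. Of the 51 lines in which Tk1 exceeded 1 on both arrays, Anapc11 did so in 37, on 1 array in 2 lines, and on neither in 12. Over all 99 lines Anapc11 exceeded 1 on both arrays in 60 (60.6%), and the overlap was not tested. Tk1 itself repeated poorly between the arrays of a line, with r = 0.0890.

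The genes whose pattern over lines was most like a subunit's were looked up among 13714 genes with under 20% exact zeros. For Anapc11 they were P4hb, a disulfide isomerase of the endoplasmic reticulum, at r = 0.806, Ccdc137 at 0.786, 0610009L18Rik at 0.663, Cbr2, a carbonyl reductase, at 0.654 and Mrpl12, a mitochondrial ribosomal protein, at 0.559. With Anapc11 from one array of a line and the other gene from the other array, r was still 0.549 for P4hb and 0.497 for Ccdc137, and between 0.324 and 0.383 for the other 3. P4hb, Ccdc137, Cbr2 and Mrpl12 are known neighbours of Anapc11 on its chromosome, although gene order was not analysed here. P4hb averaged 1.69 and Ccdc137 1.54 over the panel.

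For Anapc4 the closest gene was Pi4k2b, a lipid kinase encoded near it, at r = 0.705 and at 0.332 across arrays. Adgra3, Cyp2c38, Sult2a8 and Il18rap followed at 0.499 to 0.530. For Anapc1 it was Tmem127 at 0.613, with 0.213 across arrays, then Eif2b3, Cdca8, Ccm2l and Rragd at 0.476 to 0.500. For Cdc16, Fbxo25, an F-box protein encoded on the same chromosome, reached 0.543 and 0.221 across arrays, followed by Alkbh8, Pank3, Cep20 and Mcm10 at 0.420 to 0.494. Outside the subunits that differed between lines, and chosen after the values were seen, Anapc16 had Mcu, the mitochondrial calcium uniporter, at 0.782 and 0.329 across arrays. Anapc5 had the highest value of the 10 subunits with Rpl3, a ribosomal protein, at 0.875, with 0.886 in replicate 1, 0.821 in replicate 2 and 0.0873 across arrays. Its own r between arrays was 0.0548, which limits the last value. Anapc10 was alike with Oser1 at 0.862 and 0.0944 across arrays.

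**Figure D3:**
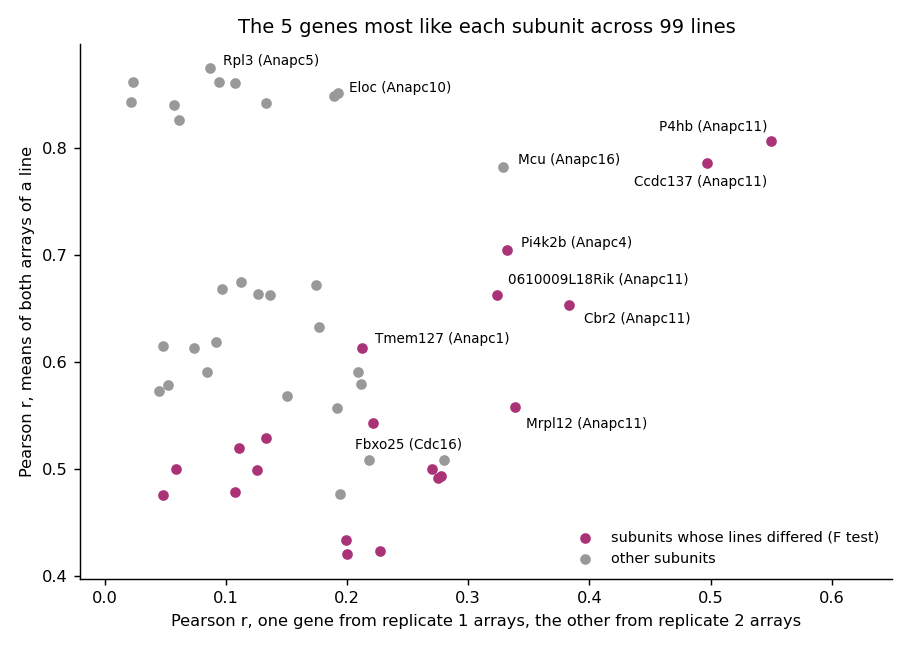
For each subunit the 5 genes most like it over the 99 lines, with Pearson r of line means on the vertical axis and r with the subunit and the gene taken from different arrays of a line on the horizontal axis. P4hb and Ccdc137, the nearest genes of Anapc11, are high on both axes at 0.806 and 0.549 and at 0.786 and 0.497, whereas Rpl3 with Anapc5 lies at 0.875 and 0.0873.

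Mouse tissue was then set against hamster tissue, which asks how strongly each probe reads mouse RNA over hamster RNA when both species supply the whole tissue. A ratio above 0 arises from more mouse transcript or from a hamster transcript that binds the mouse probe poorly, and these cannot be told apart, nor can fewer cells of a type and less RNA per cell. The 2 arrays of brain correlated across genes at r = 0.788 and those of liver at 0.695. Each feature had been centred over the 4 tissue arrays before deposit, which shifts the replicates of a tissue in opposite directions and leaves their mean. The means and differences are therefore the values to read. Tissue markers could not be checked, since the files hold ratios and no levels.

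In brain, the 4 subunits that passed were all higher in mouse: Anapc11, the RING subunit, Anapc4 and Anapc1 of the platform, and Anapc2, the cullin. Anapc11 gave 4.40 and 3.72 (mean 4.06 ± 0.68, SE, adjusted p = 0.0473), Anapc4 3.89 and 3.01 (3.45 ± 0.56, adjusted p = 0.0461), Anapc2 3.16 and 2.12 (2.64 ± 0.34, adjusted p = 0.0349) and Anapc1 2.57 and 2.34 (2.46 ± 0.30, adjusted p = 0.0334), all by limma over 4 tissue arrays. The count of 4 higher and 0 lower of 10 stood beside 10.1% of all genes higher and 5.91% lower. The features of Anapc1 disagreed: one gave 3.48 in brain (adjusted p = 0.0205) and the other 1.44 (limma, adjusted p = 0.157). Anapc10 lay at 0.46 and Anapc7 at 0.08. With either brain array left out 0 of 10 subunits passed (limma; 2 and 4 had an unadjusted p under 0.05), but neither did any of the 16504 genes. With arrays scaled to one spread Anapc1 alone of the subunits did (limma, adjusted p = 0.0493), beside 12.4% of all genes.

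The arm held both the highest and the lowest brain ratio. Cdc16, the highest, gave at least 6.64 on the first array and 5.59 on the second, a mean of at least 6.12, and Anapc16 gave 6.51 and 0.99, a mean of 3.75. Neither passed (limma, adjusted p = 0.0771 and 0.154), each with an SE of 1.58. That fit has no term for the offset left by centring, so the offset counts as spread. Cdc27, the lowest, lay at -0.39 and -3.39 in brain, and Anapc5 of the platform at -0.95 and -1.84, and neither passed. Because the second replicate is the dye swap, replicate number as a block takes up the offset left by centring. With that block the brain SE was 0.82 for Cdc16 and 0.71 for Anapc16, and 7 subunits were called in brain. Cdc16 (limma, adjusted p = 0.0112) and Anapc16 (adjusted p = 0.0248) were then higher and Anapc5 lower (adjusted p = 0.0144), beside 21.1% and 10.5% of all genes.

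In liver 0 of 10 subunits passed (limma; 5 had an unadjusted p under 0.05), beside 2.35% of all genes higher and 2.26% lower. The largest liver ratio was that of Anapc16, at least 6.64 and 5.07 on its arrays, a mean of at least 5.86. Cdc16 gave at least 6.64 and 1.00, a mean of at least 3.82. Anapc11 averaged 2.09 from 3.26 and 0.92, Anapc4 1.79 from 2.69 and 0.88, Anapc1 1.14 from 1.65 and 0.63, and Anapc2 0.92 from 1.19 and 0.64. Anapc5 was negative on both, at -0.74 and -1.60, whereas Anapc10, Anapc7 and Cdc27 stayed between -0.28 and -0.06. With the replicate block 6 subunits were called, Anapc16, Anapc4, Anapc11, Cdc16 and Anapc1 higher and Anapc5 lower (limma, adjusted p from 0.0131 to 0.0408), beside 16.3% and 9.22% of all genes.

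**Figure D4:**
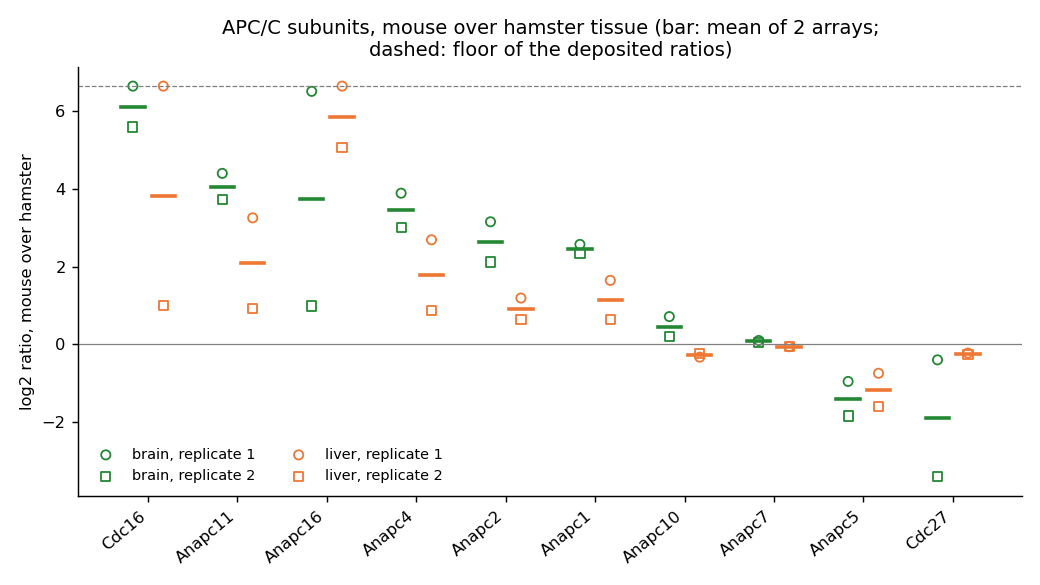
Log2 ratio of mouse over hamster (vertical axis) for each subunit on the 2 brain and the 2 liver arrays, with a bar at each tissue's mean and a dashed line at the floor of the deposited ratios. Cdc16 and Anapc16 reach the floor at 6.64, Anapc11, Anapc4, Anapc2 and Anapc1 have brain means from 2.46 to 4.06 with lower liver means, and the means of Anapc5 lie at -1.39 in brain and -1.17 in liver.

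Between tissues, the species ratio of 6 subunits was larger in brain than in liver in both replicates and of 3 it was smaller, but 0 of 10 passed the test of the difference (limma; 2 had an unadjusted p under 0.05), beside 3.53% of all genes higher and 2.54% lower. Anapc11 differed by 1.14 and 2.80 in the replicates, with a mean of 1.97 (limma, adjusted p = 0.262). Anapc2 differed by 1.72, Anapc4 by 1.66 and Anapc1 by 1.31. With the replicate block 0 of 10 passed as well (4 had an unadjusted p under 0.05; smallest limma adjusted p 0.0528, for Anapc2), beside 4.84% of all genes higher and 3.97% lower. The features of Anapc1 parted here too, at 2.92 for one (adjusted p = 0.0475) and -0.29 for the other. Anapc16 went the other way, at -2.11 or below. Cdc16 was at the floor on the first array of each tissue, so its difference is neither an upper nor a lower bound.

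Among the 10 listed subunits, those with a large species ratio tended to be those with a large panel mean. Over the 10 subunits the panel mean correlated with the brain ratio at r = 0.621 and rho = 0.855, and without Anapc11 at r = 0.863. With the liver ratio it was r = 0.501 and rho = 0.891. Over all 16504 genes these values were r = 0.307 for brain and 0.241 for liver, and since the points share arrays, all are descriptions. Of the 4 subunits above 3 in brain, 3 differed between lines, in a bin where 49.6% of all 831 genes did. Of the 2 subunits between 2 and 3, 1 did, beside 29.2% of genes. None of the 4 subunits below 2 did, but few genes did there either. The share was 3.87% of genes from -2 to -1, where Anapc5 and Cdc27 lie, and 5.09% from 0 to 1, where Anapc7 and Anapc10 lie.

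**Figure D5:**
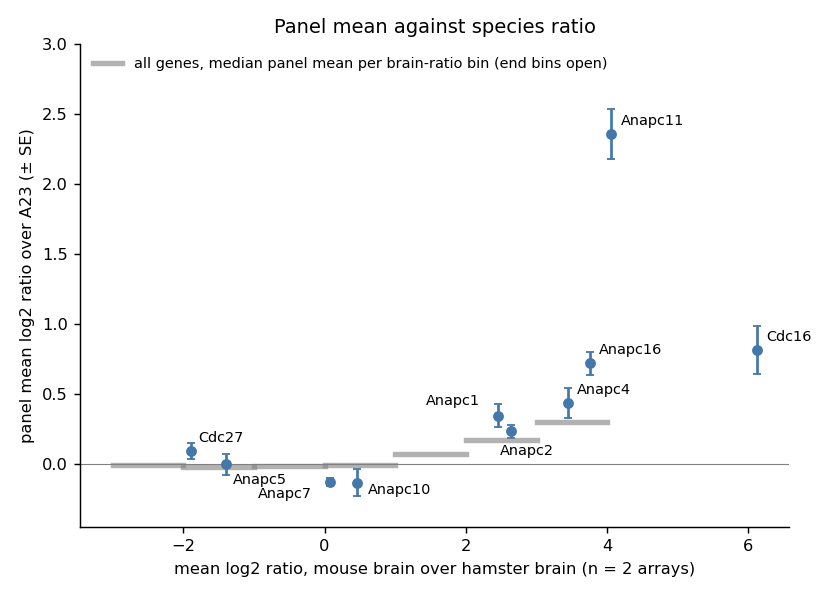
Panel mean over A23 with its SE over 99 lines (vertical axis) against the mean brain ratio of mouse over hamster (horizontal axis) for the 10 subunits, with grey bars at the median panel mean of all genes in bins of the brain ratio, the end bins being open. Subunits below 1 in brain lie between -0.14 and 0.09 on the panel axis, and Anapc11 lies at 2.36 where the median of all genes above 3 in brain is 0.30.

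A further 3 subunits, Anapc13, Cdc26 and Anapc15, were on the array but not on the list, and were looked at after the values were seen. Anapc13 averaged 0.48 ± 0.09 over the panel and had both arrays above 1 in 13 lines, Cdc26 averaged 0.08 ± 0.08 and Anapc15 -0.19 ± 0.10 (SE, n = 99 each). Their brain ratios were 3.21, 2.58 and 3.24, and their liver ratios 2.90, 3.03 and 0.48. Cdc26 and Anapc15 thus had large brain ratios without a large panel mean, unlike the pattern among the listed subunits. By limma, Anapc13 differed between lines (F = 2.60, adjusted p = 4.8e-05), and Anapc15 was higher in mouse brain (adjusted p = 0.0177) and differed between brain and liver by 2.76 (adjusted p = 0.0343).

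Of 7 coactivators and ubiquitin-conjugating enzymes, 2 were higher and 3 lower in the hybrids (19.5% and 11.4% of all genes): Ube2c, the enzyme that starts the ubiquitin chain, at 0.60 and the coactivator Cdc20 at 0.31, against Ube2s, which extends it, at -0.53 and Ube2d2a at -0.40. None of the 7 differed between lines, beside 8.88% of all genes (2 had an unadjusted p under 0.05 by limma's F test). In brain 2 of 7 were lower in mouse (5.91% of all genes), Fzr1, the G1 coactivator, at -1.82 ± 0.11 (limma, adjusted p = 0.0190) and Ube2s at -0.67, and Fzr1 differed between brain and liver by -1.45 (limma, adjusted p = 0.0452).

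Over all genes, 19.5% were higher and 11.4% lower in the panel, and 8.88% differed between lines. In brain 10.1% were higher and 5.91% lower, in liver 2.35% and 2.26%, and for brain minus liver 3.53% and 2.54%. Of 14 measured inhibitors and checkpoint genes, 6 were higher and 2 lower in the panel. Kntc1 lay at 0.99, Bub1 at 0.82, Ttk at 0.79 and Fbxo5, an inhibitor of the complex, at -0.64. Of the 14, 1 differed between lines, Mad1l1 (limma, adjusted p = 0.0133, beside 8.88% of all genes). In brain Mad2l2 was higher at 1.49 and Zw10 lower at -1.13, and in liver Usp44 at -1.20 and Kntc1 at -0.96 were lower. Of 24 substrates, 10 were higher and 0 lower in the panel, with Dtymk at 0.93, Gmnn at 0.71 and Cdc6 at 0.64. The 10 include Tk1 at 1.84, the gene the panel was selected for, so its call follows from that selection. In all, 5 of them differed between lines, with Dtymk, a thymidylate kinase, at F = 7.77 (limma, adjusted p = 1.3e-18). In brain Nek2, a centrosomal kinase, was higher at 4.59, Skil at 1.76, and Pttg1, the securin, lower at -2.09. In liver Tk1 was higher at 3.43, Cdca3 at 1.89 and Rrm2 at 1.05. Nek2 differed between brain and liver by 4.16 and Cdca3 by -2.11. Of 12 proliferation markers, 10 were higher and 0 lower in the panel, with Cdt1 at 1.12, Mcm3 at 1.09, Mcm5 at 0.98 and Top2a at 0.97, and their median was 0.37, beside 0.29 for the 10 subunits and 0.01 for all genes. Of these 12 markers 1, Mki67, differed between lines (limma, adjusted p = 0.0110) and Mcm7 was lower in mouse brain at -1.64. How far growth state has a part in the panel means of the subunits was not tested.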

How the data were processed

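The authors deposited log10 ratios of the red dye, Cy5, to the green dye, Cy3, as the labels state. Total RNA, per the labels' protocols, was isolated on columns and labelled directly. For background correction, normalization and the scanner's software, the steps taken were not given in the sources used here. Replicate 1 has A23 or hamster RNA in Cy5 and replicate 2 exchanges the dyes. Values were turned to hybrid over A23 or mouse over hamster and converted to log2.

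The table held 20868 features, a lowest log10 value of -2 (a floor), and a median of 8.23% exact zeros per array. In 99.3% of features the 4 tissue ratios had a median of 1 (tolerance 1e-06). Features with 1 symbol in the platform's probe table were averaged per gene. Intensities were not used here, so signal over background is unknown and the number of arrays limits precision.

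The panel mean used 1 value per line (limma 3.58.1, R 4.3.3; adjusted p under 0.05, absolute mean at least 0.2), lines a moderated F test, and tissues a fit over 4 arrays. Adjustment was by Benjamini-Hochberg over all genes. A23 was never set against itself, so its own spread does not enter. Replicates are called biological in the labels with no animals or cultures named, so each p-value covers the spread among these arrays alone, and that spread may be technical. The replicate number is the dye orientation, so the block was fitted beside the tissue results. Without it, the spread in the tissue fit includes the offset left by centring.

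The subunits and gene lists were chosen with earlier results of these data known. Named genes were all 10 subunits, Tk1, the 5 genes most like each subunit that differed between lines, and at most 4 called genes per list and comparison, those of largest effect. The neighbours in chromosome order that the rule also names were not analysed here. Alternatives covered exact zeros, a filter at 20% zeros, array scaling, single features, the block, matched lines and leaving out arrays. Fits were tested on simulated data.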

Additional observations from a re-analysis of the deposited data

How the results depend on the processing

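For differences between lines 4 subunits passed, beside 8.88% of all genes. The count was 2 with exact zeros as missing (7.68% of genes tested) and 2 with the filter at 20% zeros (8.65%), both of which test fewer subunits. It was 3 without the dye term, that is with no replicate block (4.65%), and 5 with arrays scaled to one spread (10.9%). Without lines 23 and 24, chosen after seeing the data, it was 5 (10.5%), and in the 28 matched lines it was 6. Matched lines were picked for agreement between their arrays, which the test measures, and 21.6% of all genes passed there. In brain the count of 4 was 1 with arrays scaled to one spread (12.4% of all genes) and 7 with the replicate block (31.6%). It was 0 with either brain replicate left out, where 0 of 16504 genes passed. In liver the count of 0 became 6 with the replicate block (25.6% of all genes), and for brain minus liver 1 with each feature alone (5.89% of all features). The mean r over pairs of subunits, 0.0187, was between 0.0164 and 0.0352 without a replicate, -0.0129 with the first 5 components removed and 0.00197 across replicates, an alternative chosen after seeing the data. The brain minus liver difference was -0.29 for one feature of Anapc1. Leaving out 1 tissue array at a time, it ran from -0.67 to 0.22 for Anapc5, changing sign to 0.22 without brain replicate 2 and to 0.20 without liver replicate 1, from -4.86 to 0.65 for Anapc16, changing sign without brain replicate 2, and from -0.53 to 5.12 for Cdc16, changing sign without liver replicate 2. These values keep the offset of the centring, which cancels only in the mean of both arrays. For the other changes the cause was not tested. The panel count of 6, all higher, was 5 higher without replicate 1, where 48.3% of all genes were called in either direction. Anapc1, Anapc2 and Anapc4 dropped out there, while Anapc5 at 0.52 and Cdc27 at 0.34 came in. Without replicate 2 the count was 6 higher and 2 lower, Anapc5 at -0.53 and Anapc7 at -0.26, beside 61.6% of all genes called. The 2 arrays per tissue and the floor limit what the tissue ratios can show.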
